A study of Homo sapiens with 4 samples.

Results

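ELAVL1 encodes HuR, the RNA-binding protein that was immunoprecipitated in the study, so the peaks over its locus bear on the protein's own transcript. The members were all peaks of the deposited lists that overlap the ELAVL1 locus by at least 1 bp. The locus lies on the minus strand of chromosome 19 from 8023457 to 8070529 in hg19 (47.1 kb), with the 3′ untranslated region (3′ UTR) at its low-coordinate end. The rule found 12 peaks among 84146, namely 6 of the 36216 peaks at 5 Gy and 6 of the 47930 peaks at 0 Gy. RNA was immunoprecipitated and sequenced (RIP-seq) from WS1, a human skin fibroblast line, in 4 libraries: HuR and control immunoglobulin (IgG) after 5 Gy of X-rays, and HuR and IgG at 0 Gy. Each list rests on 1 HuR library set against the matching IgG library, so that no difference between the doses has a replicate check and no p-value was computed. The time between irradiation and harvest is not given in the labels, and the fibroblast identity was not checked against marker genes, since the lists name no gene.

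HuR is a ubiquitous member of the ELAV family that binds U-rich and AU-rich stretches of RNA, often in 3′ UTRs, and is known for stabilising many of the mRNAs it binds. It is mostly nuclear and moves to the cytoplasm under stress, DNA damage included. The ELAVL1 mRNA is itself a known HuR target in cultured human cells, where binding in its long 3′ UTR near alternative polyadenylation sites forms part of an autoregulatory loop. Recovery over IgG depends on both the amount of a transcript and how much of it HuR holds, and these cannot be told apart in the peak lists. The lists hold no reads, so whether all reads under the ELAVL1 peaks came from the cells' own transcript was not tested.

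The HuR libraries gave peaks over IgG at the same 6 places of the ELAVL1 locus at both doses. All 6 peaks at 5 Gy overlapped a peak at 0 Gy, and all 6 at 0 Gy overlapped one at 5 Gy (Wilson 95% interval of each share 61.0 to 100%, counting error only). In the lists as a whole, a match at the other dose was found for 73.0% of peaks at 5 Gy and 58.1% at 0 Gy. Among peaks scoring at least 300, a class set after the values were seen to take in every ELAVL1 peak, the shares were 98.5% at 5 Gy and 95.6% at 0 Gy. The full overlap at ELAVL1 is thus close to the background of peaks this strong.

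The peaks are numbered 1 to 6 from the 3′ end of the gene to its 5′ end. Peak 1, the nearest to the 3′ end, ran from 8026825 to 8028813 at 5 Gy (1989 bp) and from 8027022 to 8028876 at 0 Gy (1855 bp). This was the longest peak lying wholly inside the locus at either dose, and its authors' score was 3100 at both. The score is the authors' own peak score. Its minimum is close to 60 in both lists, which is 10 times the negative log10 of a p-value of 1e-06, and 2000 peaks at 5 Gy and 2481 at 0 Gy are tied at 3100. Scores above 3100 were held by 70 peaks at 5 Gy and 85 at 0 Gy. They were treated as equal to 3100 in all ranks, because the order of the 2 kinds is not stated, and 3100 is called the ceiling here.

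Peak 2 ran from 8032170 to 8032873 at 5 Gy (704 bp) and from 8032243 to 8032727 at 0 Gy (485 bp), with a score of 3100 at both doses. Peak 3 was among the shortest, from 8038568 to 8038825 at 5 Gy (258 bp, score 2620.02) and from 8038587 to 8038823 at 0 Gy (237 bp, score 3001.62). Its edges lay 19 bp apart on the low side and 2 bp apart on the high side, the closest agreement of the 6 places. Peak 4 was the weakest and the shortest, from 8045904 to 8046139 at 5 Gy (236 bp, score 387.50) and from 8045930 to 8046109 at 0 Gy (180 bp, score 972.48).

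Peak 5 ran from 8056473 to 8056879 at 5 Gy (407 bp, score 2546.37) and from 8056479 to 8056742 at 0 Gy (264 bp, score 3193.34, equal to 3100 in ranks). Its low edges lay 6 bp apart and its high edges 137 bp apart. Peak 6, at the 5′ end, ran from 8070373 to 8072642 at 5 Gy (2270 bp, score 2778.51) and from 8070299 to 8071122 at 0 Gy (824 bp, score 3100). It lies mostly outside the gene, with 157 bp inside the locus at 5 Gy and 231 bp at 0 Gy. The next gene on that side in the RefSeq gene order (GRCh38.p14, used for order only) is LOC105372266, a long noncoding RNA. The lists hold no strand, so reads of ELAVL1 and of any transcript upstream of it cannot be told apart in peak 6.

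**Figure D1:**
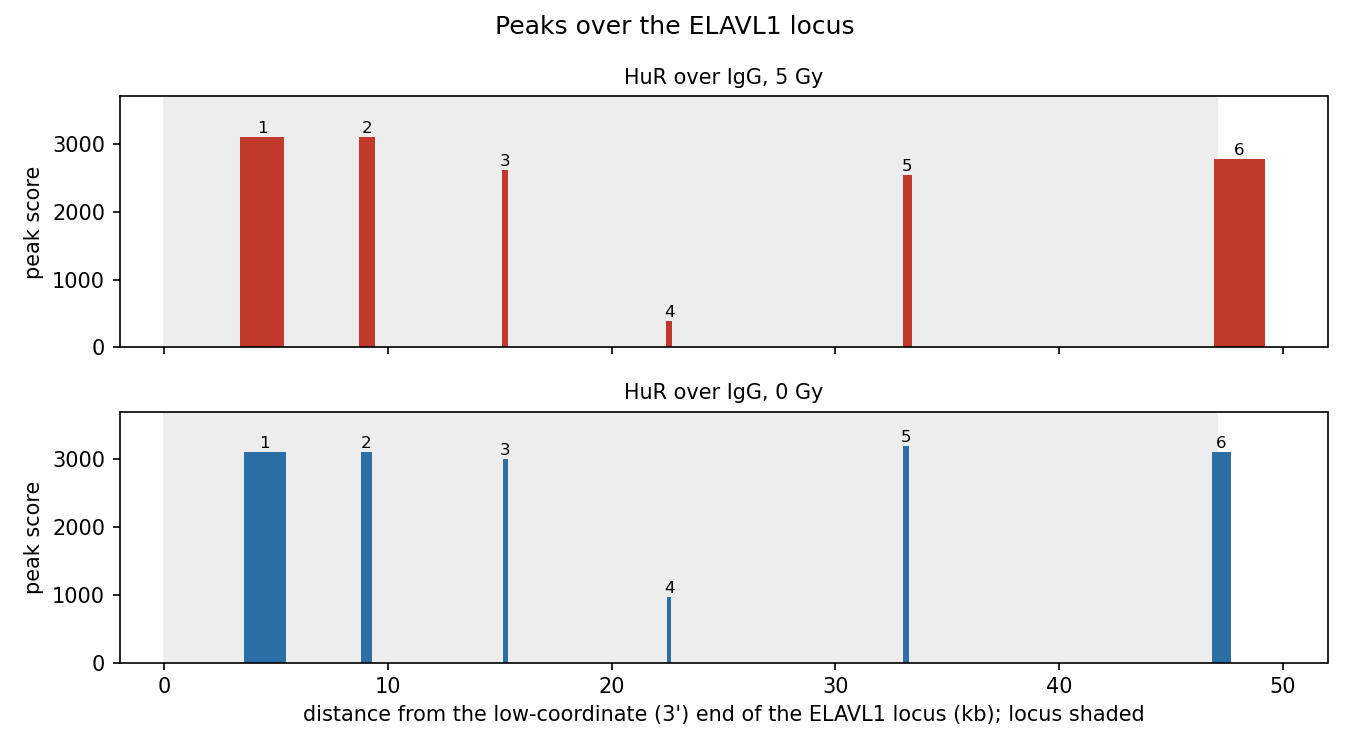
Peaks over the ELAVL1 locus at 5 Gy (top) and 0 Gy (bottom). The horizontal axis is the distance in kb from the low-coordinate end of the locus, bars span each of the 6 member peaks to scale, and bar height is the authors' peak score (peaks outside the locus are not drawn). The 6 places coincide at both doses, peak 4 is the lowest with 387.50 at 5 Gy and 972.48 at 0 Gy, and the first 3.37 kb of the locus hold no peak at either dose.

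Peaks covered a small part of the locus, 3751 bp (7.97%) at 5 Gy and 3252 bp (6.91%) at 0 Gy, and 3115 bp lay under peaks of both doses. The part covered at both doses was 83.0% of the covered bases at 5 Gy and 95.8% at 0 Gy. Covered length in the locus at 5 Gy came to 115% of that at 0 Gy. On chromosome 19 as a whole it came to 91.5% and over all chromosomes to 91.7%. These ratios are not alike, since the list totals also take in peak numbers, 36216 at 5 Gy against 47930 at 0 Gy. The locus held 6 peaks at each dose. The uncovered stretches between peaks grew longer towards the 5′ end. Counting only bases without a peak at either dose, they measured 3.29 kb between peaks 1 and 2, 5.69 kb between peaks 2 and 3 and 7.08 kb between peaks 3 and 4. The stretches between peaks 4 and 5 and between peaks 5 and 6 measured 10.3 kb and 13.4 kb.

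The extreme 3′ end of the locus, from 8023457 to 8026824, had no peak in either list. These 3368 bp lie beyond peak 1 in the direction of transcription, at the end where the 3′ UTR lies. No exon coordinates of hg19 were at hand, so how peak 1 divides between coding sequence and 3′ UTR, and whether peaks 2 to 6 fall on exons, was not determined. A stretch without a peak holds no call over IgG at the authors' threshold, which does not show that HuR is absent there.

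The ELAVL1 peaks were longer at 5 Gy at all 6 places, peak 6 only through bases outside the locus. Inside the locus, peak 6 was shorter at 5 Gy, with 157 bp against 231 bp at 0 Gy. The 6 lengths at 5 Gy ranged from 236 to 2270 bp with a median of 556 bp, and those at 0 Gy from 180 to 1855 bp with a median of 375 bp, so the 2 ranges overlap. For peaks 1 to 5, where a single peak of one list meets a single peak of the other, length was greater at 5 Gy in 5 of 5 pairs, with length ratios of 1.07 to 1.54 and a median of 1.31. Across all 19750 such pairs of the lists the 5 Gy peak was longer in 58.3%, with a median ratio of 1.03. Among the 1029 pairs whose 0 Gy peak was under 500 bp with a score of at least 900, as for peaks 2 to 5, the share was 72.6% and the median ratio 1.12. That class was chosen by 0 Gy values alone, which by itself favours longer peaks at 5 Gy. In 4 of the 5 pairs, peaks 2 to 5, the 0 Gy peak lay wholly inside the 5 Gy peak, which was the case for 32.9% of all pairs. The share among the 1029 short pairs of high score, the class closer to these peaks, was not computed. Peak 1 was instead shifted, its low edge lying 197 bp and its high edge 63 bp further towards the 3′ end at 5 Gy.

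Peak 6 differed most in extent between the doses. At 5 Gy it overlapped 2 peaks of the 0 Gy list, peak 6 itself and a 683 bp peak from 8071278 to 8071960 that lies outside the locus with a score of 140.04. Those 2 peaks at 0 Gy stood 155 bp apart. The 5 Gy peak reached 1520 bp further upstream than peak 6 at 0 Gy, and its low edge lay 74 bp further inside the 0 Gy peak. In the whole list, 9.28% of 5 Gy peaks lay against at least 2 peaks at 0 Gy. That share is over peaks of all lengths, whereas peak 6 at 5 Gy was longer than 90.8% of the list. A share among peaks of similar length was not computed.

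**Figure D2:**
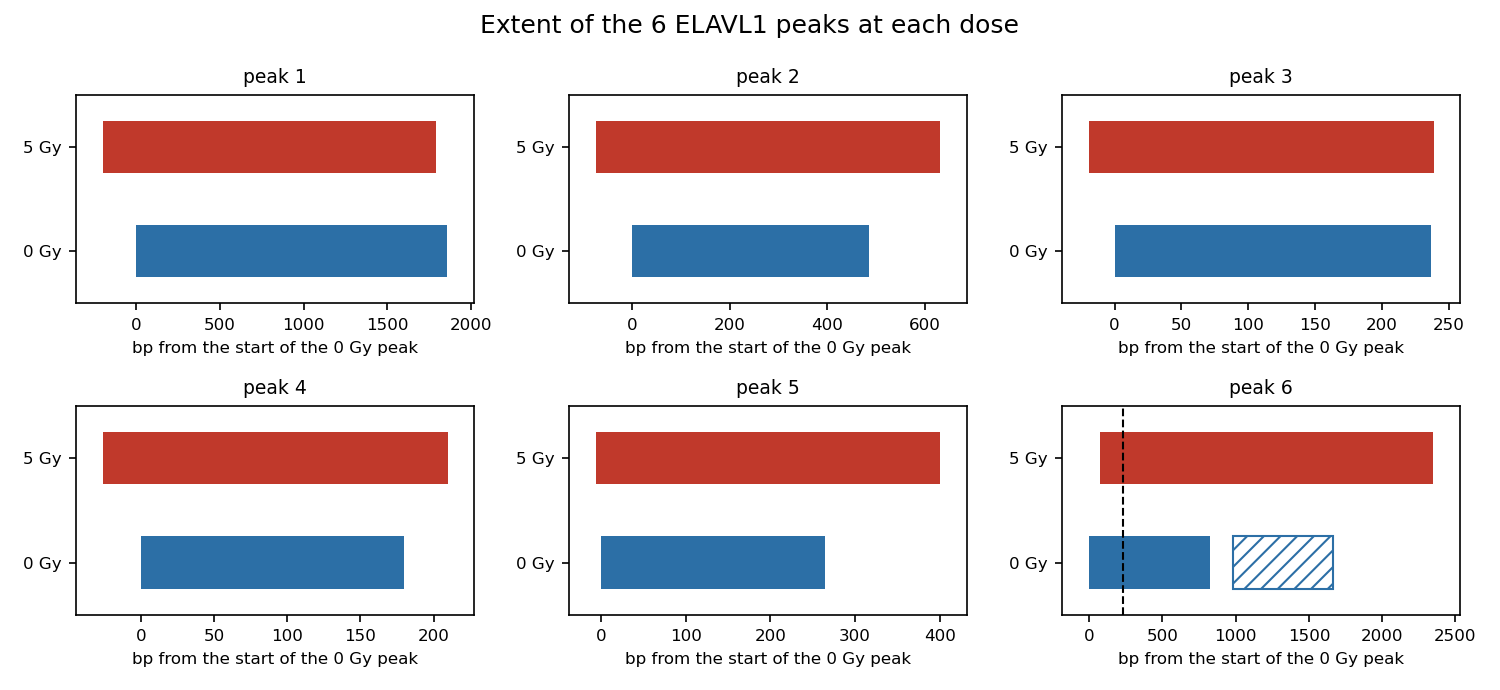
Extent of the 6 ELAVL1 peaks at 5 Gy (upper bar) and 0 Gy (lower bar), 1 panel per peak. The horizontal axis is in bp from the start of the 0 Gy peak and differs in scale between panels. In the panel of peak 6 the dashed line marks the 5′ end of the locus and the hatched bar the neighbouring 0 Gy peak of 683 bp, both of which the 5 Gy peak spans, while peaks 2 to 5 at 0 Gy lie inside their 5 Gy counterparts.

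Scores of peaks 3 to 6 were lower at 5 Gy, but only peaks 3 and 4 were free to go either way. Peaks 5 and 6 stood at the ceiling at 0 Gy, so they could only tie or score lower at 5 Gy. Peaks 1 and 2 were at 3100 at both doses and could not be compared. Peak 3 scored 2620.02 at 5 Gy against 3001.62 at 0 Gy, peak 5 scored 2546.37 against the ceiling, and peak 6 scored 2778.51 against the ceiling. Peak 4 had the lowest ratio, 0.398, with 387.50 at 5 Gy and 972.48 at 0 Gy. Over the 5 one-to-one pairs, with scores limited to the ceiling, the median ratio of 5 Gy to 0 Gy was 0.873. It was 0.859 over all such pairs of the lists and 0.663 over those with a short 0 Gy peak of high score. The ELAVL1 median is partly set by the ceiling, which fixed the ratios of peaks 1 and 2 at 1. Peak 1 is also too long at 0 Gy for the short class. The direction of peak 5 was set by its place at the ceiling at 0 Gy. With peak 5 included, the score was lower at 5 Gy in 3 of 3 one-to-one pairs not at the ceiling at both doses. Such a direction was common, with 64.5% of all one-to-one pairs not at the ceiling at both doses scoring lower at 5 Gy, and 87.8% of those with a short 0 Gy peak of high score as defined above. A score at 5 Gy of at most 50% of that at 0 Gy, as for peak 4, was found in 22.1% of all one-to-one pairs and in 33.4% of those short pairs of high score. The short class was chosen by 0 Gy values alone, which by itself favours lower scores at 5 Gy. The shares of 64.5% and 87.8% also count pairs at the ceiling at 0 Gy only, which could not score higher at 5 Gy. Scores grow with sequencing depth, which is unknown for these libraries, so a lower score at 5 Gy does not by itself show less HuR on the transcript.

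Ranks within each list need no common scale, although they still move with the number of weak peaks a list holds. The percentile of a peak is the share of its own list that scored lower. At 5 Gy, peaks 1 and 2 stood at the 94.3rd percentile, which is the highest the ceiling allows, peak 6 at 93.8, peak 3 at 93.4 and peak 5 at 93.3. At 0 Gy, peaks 1, 2, 5 and 6 stood at the ceiling, percentile 94.6, and peak 3 at 94.5. The ceiling was thus reached by 2 of the 6 peaks at 5 Gy, against 5.72% of that list, and by 4 of the 6 at 0 Gy, against 5.35% of that list. Peak 4 stood apart from the others at both doses, at the 75.1st percentile at 5 Gy and the 87.5th at 0 Gy, 12.4 points apart. The other 5 differed by 0.36 to 1.36 points, all lower at 5 Gy, of which 0.36 points for peaks 1 and 2 come from the different share of peaks at the ceiling in the 2 lists. Peaks 1, 2, 5 and 6 were at the ceiling at 0 Gy, and the highest percentile possible is lower at 5 Gy. Their direction was therefore fixed.

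Peaks 2, 3 and 5 were strong for their length at both doses, whereas peak 1, and peak 4 at 5 Gy, were less unusual. A score of at least 900 was reached by 5 of the 6 peaks at 5 Gy, against 14.0% of that list, and by 6 of the 6 at 0 Gy, against 13.2% of that list. Each peak was also set against the peaks of its list within a factor of 1.2 of its own length, itself included. For peak 3, a score as high was found in 1.02% of such peaks at 5 Gy (32 of 3136) and in 0.894% at 0 Gy (42 of 4697). For peak 5 the share was 1.12% at 5 Gy and 0.977% at 0 Gy, and for peak 2 it was 3.05% at 5 Gy and 1.78% at 0 Gy. Peak 4, the weakest, had a share of 13.6% at 5 Gy and of 2.77% at 0 Gy. Longer peaks reached such scores more often, with shares of 14.8% at 5 Gy and 16.3% at 0 Gy for peak 1. For peak 6 the share was 18.7% at 5 Gy, where it was 2270 bp long, and 4.69% at 0 Gy, where it was 824 bp long. A share of at most 5% was met by 3 of the 6 peaks at 5 Gy (peaks 2, 3 and 5) and by 3.54% of that list, and by 5 of the 6 at 0 Gy (peaks 2 to 6) and by 3.82% of that list. The factor and the bound of 5% were set after the values were seen.

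**Figure D3:**
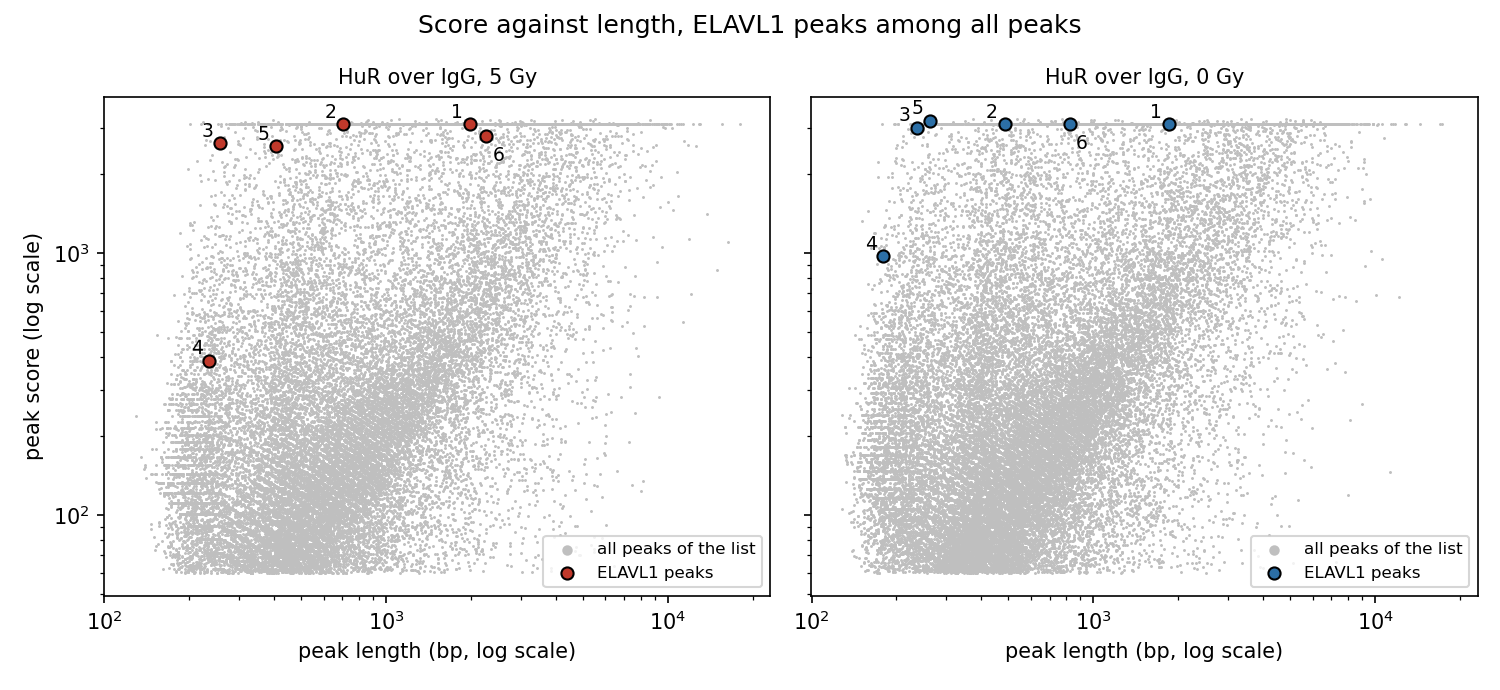
Peak score against peak length in bp, both on log scales, for all peaks (grey) and the 6 numbered ELAVL1 peaks (coloured) at 5 Gy (left) and 0 Gy (right). The line of points near the top is the tie at 3100. Peaks 3 and 5 lie at the upper left edge of both clouds, with lengths of 258 and 407 bp at 5 Gy and 237 and 264 bp at 0 Gy.

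Short peaks with scores this high were rare in both lists. A score of 2500 or more was held by 1.09% of the peaks up to 500 bp long at 5 Gy (170 of 15564) and by 1.19% of those at 0 Gy (322 of 27025). At ELAVL1, 2 of the 3 peaks up to 500 bp did so at 5 Gy (peaks 3 and 5), and 3 of the 4 at 0 Gy (peaks 2, 3 and 5). The bounds of 500 bp, 900 and 2500 used here and above were also chosen with the values in view.

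Peaks around the gene were weaker than most of those over it. Within 50 kb on either side there were 4 peaks at 5 Gy, with scores of 113.14 to 594.13, and 9 peaks at 0 Gy, with scores of 66.87 to 583.55. The highest flanking score exceeded that of peak 4 at 5 Gy, whereas the other ELAVL1 peaks at 5 Gy and all 6 at 0 Gy scored above every flanking peak of their dose. On the low side, towards TIMM44, which encodes a subunit of the mitochondrial protein import motor, the nearest peak to the locus was 28.2 kb away at 5 Gy and 27.4 kb away at 0 Gy. On the high side, the nearest peak beyond the members began 2.88 kb from the locus at 5 Gy (score 152.46) and 0.748 kb from it at 0 Gy (score 140.04). The latter lies wholly under peak 6 at 5 Gy, so its bases count as flank at 0 Gy and as a member at 5 Gy.

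Number of peaks and covered length at ELAVL1 were unexceptional among the parts of chromosome 19 that hold any peak, whereas the scores were high. Parts without a peak were not counted. The chromosome was divided into windows of the length of the locus, with the locus as 1 window and each peak placed by its midpoint, which puts peak 6 outside. The ELAVL1 window then held 5 peaks at each dose. At 5 Gy, 102 of the 439 windows with any peak held at least as many peaks, and 149 had at least as many bases in peaks. At 0 Gy the numbers were 142 and 195 of 483 windows. Of the windows with at least 5 peaks, the ELAVL1 window included, 2 of 102 at 5 Gy and 2 of 142 at 0 Gy reached its median score (2620.02 at 5 Gy, and 3100 at 0 Gy). Its lowest score, that of peak 4, was reached by the lowest score of 5 of the 102 windows at 5 Gy and of 2 of the 142 at 0 Gy. The minimum of 5 peaks is the ELAVL1 window's own number and was set with the values in view. Every window compared thus held as many peaks or more, which by itself favours a lower minimum in the others. A median peak length as short as that of ELAVL1 was found in 10 of the 102 windows at 5 Gy and in 3 of the 142 at 0 Gy.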

How the data were processed

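There were 2 peak lists, 1 per dose, with 1 HuR library over 1 IgG library each. The submitters' processing notes name cutadapt 1.9.1, Bowtie2 2.2.4 and the build hg19. The peak names begin with MACS, per the deposited files, whereas the version of the caller is not given in the sources used here. Every deposited line gives a chromosome, start, end (other values, in bp), name and the authors' peak score. Starts were counted from 1. The locus bounds came with the choice of the gene and are not from an annotation at hand. The gene, its bounds and the settings were chosen with earlier results of these data known. All peaks over the locus were to be named, with the nearest peak on each side. Overlap meant at least 1 bp, strand ignored. It was computed in Python 3.11.15 (numpy 2.4.6, pandas 2.3.3, scipy 1.17.1), gave the same counts as bedtools 2.31.1 and was tested on simulated data. Read depth is unknown and the lists hold no read counts, so intervals cover counting only. The count is of peaks for shared peaks, and of bases for covered and shared length. Expression libraries, exon assignment and sequences were not analysed here. Alternatives were other score minima, locus bounds, overlap rules and rank backgrounds.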

Additional observations from a re-analysis of the deposited data

How the results depend on the processing

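With 9 alternative settings, 54 values of 11 results were recomputed. Of these, 42 stayed within the bounds set and 12 did not. The bounds were Wilson 95% intervals, over peaks for shared peaks and over bases for covered and shared length. Neighbouring bases are not independent, so the intervals over bases are too narrow. For peak numbers the bound was 1.5 times, and for the median percentile a change of over 0.05 points counted as moved. Score minima could change none, since every ELAVL1 peak lies above them. Counting peaks within 100 bp as shared could not either, since all were shared already. Joining peaks within 1 kb could not change the peak number, since all gaps between ELAVL1 peaks are longer. These values are among the 42, so that number does not measure stability. The median percentile of the ELAVL1 peaks was 93.60 at 5 Gy and 94.65 at 0 Gy before any change. With the locus extended by 5 kb on each side, the bases under peaks came to 6443 at 5 Gy and 5101 at 0 Gy (126% at 5 Gy relative to 0 Gy). The covered share found at both doses was then 76.0% at 5 Gy, and the median percentile was 93.44 at 5 Gy and 94.58 at 0 Gy. With peaks placed by midpoint, which removes peak 6, the bases under peaks came to 3594 at 5 Gy and 3021 at 0 Gy. The median percentile was then 93.44 at 5 Gy, and the covered share found at both doses 97.9% at 0 Gy. Ranked among chromosome 19 peaks alone, the median percentile was 92.2 at 5 Gy and 92.8 at 0 Gy. Requiring 50% of each peak to overlap left 83.3% shared at each dose, the exception being peak 6. Leaving scores above 3100 as deposited, a setting added after seeing the data, moved no median percentile. It could not, since peak 5 at 0 Gy is the only ELAVL1 peak above 3100. No paired analysis was possible because there is only 1 library in each group. Unknown read depth limits every comparison of scores and lengths between the doses.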
